A study of Rattus norvegicus with 24 samples.

Results

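The 7 transcripts described here are those of the core circadian clock, Per1, Per2, Per3, Arntl, Clock, Dbp and Nr1d1, chosen by their Ensembl identifiers. They are 7 of the 32883 genes in a table of read counts, and all 7 passed the filter on low counts that left 14838 genes. The identifiers were ENSRNOG00000007387 for Per1, ENSRNOG00000020254 for Per2, ENSRNOG00000018413 for Per3, ENSRNOG00000014448 for Arntl, ENSRNOG00000002175 for Clock, ENSRNOG00000021027 for Dbp and ENSRNOG00000009329 for Nr1d1. The count table holds identifiers and no gene names, and the reference gene table holds 0 Ensembl identifiers. The pairing of name and identifier therefore came with the choice of the genes and was not checked against a table.

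RNA was sequenced from the dissected hippocampus of male Sprague-Dawley rats in a design of 2 factors, training and corticosterone, a glucocorticoid that is the chief stress hormone of rats. Of the 24 libraries, 13 came from untrained rats, 7 given vehicle and 6 given corticosterone, and 11 from trained rats, 5 given vehicle and 6 given corticosterone, and the question of the study is how such hormones strengthen memory. The labels give no training task, no dose, no interval between treatment and sampling and no hour of day, so the phase of the clock at sampling is not known. Whether each library stands for its own animal is not stated, so the spread that p-values rest on may be technical. No genetic change is named, and vehicle was the treatment of both control groups. Replicates below carry the sample number of their title.

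In the clock, the proteins of Arntl (also called Bmal1) and Clock pair and bind E-box sequences, which drives transcription of the Per genes, Nr1d1 and Dbp. The Per proteins inhibit that pair, the product of Nr1d1 (REV-ERB alpha) represses Arntl through ROR elements, and Dbp encodes a transcription factor that carries the rhythm to output genes through D-boxes. Clock transcripts cycle over the day in the hippocampus as in most tissues, and Per1 is besides a direct target of the glucocorticoid receptor.

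RefSeq promoter windows of assembly GRCr8, 250 bases before and 50 bases after an annotated transcript start, were found for all 7 genes, with 9 windows because Clock and Nr1d1 had more than 1. The windows are shown for Per1, the glucocorticoid target set against the other genes, and for Per2, Arntl and Nr1d1, which held clock elements; capitals mark the motifs found, on either strand. Searched were the E-box CACGTG, the E-prime box CACGTT, the D-box TTATGTAA or TTACGTAA, the cyclic AMP element TGACGTCA, the ROR and REV-ERB hexamer AGGTCA, the glucocorticoid receptor hexamer AGAACA, and that receptor's palindrome of 2 such hexamers in opposite orientation with 3 bases between them. The coordinates are those of GRCr8 and not of rn6, the build used for the counts.
Per1, chr10:54304126-54304425, plus strand: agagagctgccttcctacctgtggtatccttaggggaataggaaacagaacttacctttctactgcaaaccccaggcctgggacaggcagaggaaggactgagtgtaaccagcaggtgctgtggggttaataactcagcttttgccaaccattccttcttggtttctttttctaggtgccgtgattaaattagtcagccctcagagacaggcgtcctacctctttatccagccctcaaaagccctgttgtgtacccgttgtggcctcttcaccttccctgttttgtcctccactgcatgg
Per2, chr9:99496944-99497243, minus strand: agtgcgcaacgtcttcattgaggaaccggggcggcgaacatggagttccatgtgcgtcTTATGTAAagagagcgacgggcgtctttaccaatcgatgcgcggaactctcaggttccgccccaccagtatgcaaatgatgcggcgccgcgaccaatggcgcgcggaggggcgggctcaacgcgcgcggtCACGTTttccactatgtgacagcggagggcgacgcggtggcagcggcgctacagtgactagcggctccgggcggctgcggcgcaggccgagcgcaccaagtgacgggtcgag
Arntl, chr1:176766078-176766377, plus strand: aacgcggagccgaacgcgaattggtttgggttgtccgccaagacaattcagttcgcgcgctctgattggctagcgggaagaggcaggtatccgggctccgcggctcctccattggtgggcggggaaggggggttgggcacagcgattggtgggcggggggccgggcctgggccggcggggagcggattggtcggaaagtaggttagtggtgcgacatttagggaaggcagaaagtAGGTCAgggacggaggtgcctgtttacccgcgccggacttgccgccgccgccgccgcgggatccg
Nr1d1, chr10:84229405-84229704, minus strand: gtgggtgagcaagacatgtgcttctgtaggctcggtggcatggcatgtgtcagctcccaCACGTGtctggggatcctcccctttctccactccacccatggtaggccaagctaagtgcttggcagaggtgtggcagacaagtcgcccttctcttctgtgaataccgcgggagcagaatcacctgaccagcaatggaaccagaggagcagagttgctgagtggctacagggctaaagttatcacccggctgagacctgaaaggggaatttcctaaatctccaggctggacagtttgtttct
The Per2 window held a D-box at -192 and an E-prime box at -62 from the start. The Nr1d1 window above held an E-box at -191, and its other window an E-prime box at -174. The Arntl window held the REV-ERB hexamer at -15, and 1 Clock window a glucocorticoid hexamer at -70. No motif was found in the windows of Per1, Per3 and Dbp. Of 33469 rat windows of the same length, 6.42% held an E-box, 4.83% an E-prime box, 1.01% a D-box, 1.83% the cyclic AMP element, 16.2% the REV-ERB hexamer, 20.7% the glucocorticoid hexamer and 0.0149% (5 windows) the palindrome. These matches are descriptions of sequence only, and letters outside the windows were not searched. The Per1 window lies inside the annotated span of the gene. The Nr1d1 window shown lies downstream of the other Nr1d1 window, and the Clock window with the hexamer lies downstream of the other Clock window.

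Total counts in genes were 13760331 to 16765088 per library with a median of 15754782. Every clock transcript was covered by at least 423 reads in each library, so read sampling alone gave a standard deviation (SD) of 0.035 to 0.064 on the log2 scale. Libraries of a group differed by more than that, with SDs of 0.12 for Per1, 0.13 for Per2, 0.13 for Per3, 0.13 for Arntl, 0.065 for Clock, 0.17 for Dbp and 0.11 for Nr1d1, against a median of 0.14 over all genes. Clock was the steadiest, with a smaller SD in only 8.43% of genes, and Dbp the most variable of the 7. Levels are given as CPM, read counts relative to the library total, after scaling of library totals, and are not comparable between genes because they are not divided by gene length. Reads were counted with a strand setting not given in the sources used here. Nr1d1 overlaps Thra, a thyroid hormone receptor gene on the opposite strand, and Per2 and Clock overlap 1 and 2 long noncoding RNA genes of the opposite strand, so the counts of these 3 genes are uncertain and may hold reads of their neighbours.

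The first question was whether corticosterone moved the clock. None of the 7 transcripts changed at an adjusted p under 0.05 when corticosterone was compared with vehicle over both training states, while 0.93% of all genes did. The whole-table test was edgeR's quasi-likelihood test with Benjamini-Hochberg adjustment. At an unadjusted p under 0.05 the count was again 0 of 7, beside 9.25% of all genes, and DESeq2 and limma-voom also called 0 of 7. The median log2 fold change was 0.00 over the 7 genes and 0.00 over all genes, with 4 of the 7 above 0. In hippocampal tissue, fewer cells of a type and less RNA per cell cannot be told apart.

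Neither activator passed the test. Without training, Arntl averaged 33.4 ± 2.29 CPM after vehicle (SD, n = 7) and 33 ± 1.90 CPM after corticosterone (SD, n = 6). With training, it averaged 33 ± 2.63 CPM after vehicle (SD, n = 5) and 33.7 ± 4.77 CPM after corticosterone (SD, n = 6). The log2 fold change of Arntl with corticosterone was 0.00 with a 95% interval of -0.10 to 0.11 (edgeR adjusted p = 0.992). Clock, its partner, was at 105 ± 4.17, 102 ± 4.85, 107 ± 4.12 and 104 ± 5.41 CPM in the same groups in that order. The Clock interval was the narrowest of the 7, with a log2 fold change of -0.04 between -0.10 and 0.02 (edgeR adjusted p = 0.738). For these activators, all groups overlapped, and the extreme Arntl libraries, replicates 33 at 26.7 CPM and 3 at 41.5 CPM, both belonged to the trained corticosterone group.

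Among the repressors, Per1 was the gene for which a rise with corticosterone is known from its receptor element. In untrained vehicle libraries its lowest, median and highest levels were 60.8, 67.2 and 74.0 CPM, and in untrained corticosterone libraries 56.2, 69.5 and 72.7 CPM. The trained vehicle libraries had 59.6, 60.2, 63.1, 60.9 and 67.8 CPM (replicates 5, 10, 20, 25 and 35). The trained corticosterone libraries ranged from 63.3 to 82.8 CPM with a median of 65.7 CPM. Both pairs of groups overlapped, and the highest library, replicate 28, lay well above the next trained corticosterone library at 69.6 CPM. Over both training states Per1 had a log2 fold change of 0.08 with a standard error (SE) of 0.05 and an interval of -0.02 to 0.17 (edgeR adjusted p = 0.682). The upper limit corresponds to 1.13-fold. Without replicate 28 the value was 0.04, and without untrained corticosterone replicate 9, the lowest library, 0.10 (edgeR adjusted p = 0.860 and 0.427).

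For scale, 101 genes rose with corticosterone with a median log2 fold change of 0.39 and a highest of 2.28, and 37 fell with a median of -0.28. The smallest absolute change among these called genes was 0.13, which lies inside the Per1 interval.

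Within the training states, Per1 differed by 0.01 on the log2 scale in untrained rats (interval -0.12 to 0.14) and by 0.14 in trained rats (interval -0.001 to 0.28, unadjusted p = 0.0519, edgeR adjusted p = 0.709). The trained value was 0.08 without replicate 28 and 0.17 without trained vehicle replicate 35. The interaction, which tests the difference between the training states, was 0.13 with an SE of 0.09 and did not pass (edgeR adjusted p = 0.962).

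Per2, the second of the Per repressors, had the largest difference in trained rats. Its levels in trained vehicle libraries were 60.0, 76.6, 65.2, 67.9 and 82.6 CPM (replicates 5, 10, 20, 25 and 35). In trained corticosterone libraries the lowest, median and highest were 68.6, 83.9 and 86.3 CPM, and the groups overlapped because vehicle replicates 10 and 35 exceeded the lower corticosterone libraries. The log2 fold change was 0.19 with an SE of 0.08 (1.14-fold, interval 0.03 to 0.34, unadjusted p = 0.0221), and it did not pass the adjustment (edgeR adjusted p = 0.631). It ranged from 0.13 without trained vehicle replicate 5 to 0.25 without trained vehicle replicate 35, and did not pass in either case. The unadjusted p was above 0.05 with runs of 5 sample numbers in the model (0.0937), with only the 2 groups compared (0.0542), and without trained vehicle replicate 5 (0.0996), 20 (0.0627) or 25 (0.0516) or trained corticosterone replicate 28 (0.0545). In untrained rats Per2 was at 72.4 ± 4.23 CPM with vehicle (SD, n = 7) and 72.0 ± 5.53 CPM with corticosterone (SD, n = 6), a log2 fold change of -0.01. Over both training states the Per2 value was 0.09 (interval -0.02 to 0.19, unadjusted p = 0.0994, edgeR adjusted p = 0.654), beside 0.08 for Per1. The Per2 interaction was 0.19 with an SE of 0.10 (unadjusted p = 0.0705, edgeR adjusted p = 0.962). With 1 library left out it ranged from 0.14 (without trained vehicle replicate 5) to 0.26 (without trained vehicle replicate 35), and it never passed. Total counts averaged 14764536 in trained vehicle and 16090839 in trained corticosterone libraries. After removal of group means, r with the log2 total count was 0.40 for Per2 and 0.34 for Per1 (permutation p = 0.0558 and 0.103). The part of the total count in the trained differences was not tested.

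Per3, the remaining Per gene, had nearly the same mean in all 4 groups. Without training, it averaged 60.5 ± 3.80 CPM after vehicle (SD, n = 7) and 60.2 ± 7.24 CPM after corticosterone (SD, n = 6). With training, the means were 59.9 ± 2.36 CPM (SD, n = 5) and 59.3 ± 6.83 CPM (SD, n = 6). The log2 fold change over both states was -0.01 (interval -0.12 to 0.10, edgeR adjusted p = 0.983). The 12 vehicle libraries covered 55.4 to 64.7 CPM (SD 3.16), and the 12 corticosterone libraries covered the wider range of 48.8 to 69.1 CPM (SD 6.73). That difference in spread was not tested.

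Nr1d1, the repressor of Arntl, averaged 107 ± 8.79 CPM after vehicle (SD, n = 7) and 106 ± 2.93 CPM after corticosterone (SD, n = 6) without training. In trained rats it averaged 109 ± 10.3 CPM with vehicle (SD, n = 5) and 115 ± 11.3 CPM with corticosterone (SD, n = 6). Its log2 fold changes were -0.01 and 0.08 in these states and 0.03 over both (edgeR adjusted p = 0.994, 0.838 and 0.917). Replicate 28, high in Per1, was also the highest Nr1d1 library at 135 CPM. Without it the trained value was 0.022 and that over both states 0.0046, and without trained vehicle replicate 10 they were 0.13 and 0.059.

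Dbp, the output factor, did not pass the test in either training state. Untrained vehicle libraries had a lowest, median and highest level of 86.0, 96.0 and 106 CPM, and untrained corticosterone libraries of 76.8, 85.5 and 98.4 CPM. Trained vehicle libraries had 79.6, 102, 93.0, 64.6 and 98.1 CPM (replicates 5, 10, 20, 25 and 35), and trained corticosterone libraries ran from 79.9 through a median of 95.9 to 108 CPM. All of these ranges overlapped, and replicate 25 at 64.6 CPM was the lowest of the 24 libraries. The log2 fold change was -0.16 in untrained rats (unadjusted p = 0.0814, edgeR adjusted p = 0.807) and 0.12 in trained rats (unadjusted p = 0.199, edgeR adjusted p = 0.816). With runs of 5 sample numbers in the model the untrained value was -0.22 and the trained value 0.059. With 1 library left out, the untrained value ranged from -0.20 (without untrained corticosterone replicate 39) to -0.12 (without untrained corticosterone replicate 9). Its lowest unadjusted edgeR p among these was 0.0343, and none passed the adjustment. The trained value was 0.031 without trained vehicle replicate 25 and 0.18 without trained vehicle replicate 10. The interaction, the trained minus the untrained value, was 0.28 with an SE of 0.13 (interval 0.02 to 0.54, unadjusted p = 0.0374). It did not pass the adjustment (edgeR adjusted p = 0.962). Without trained vehicle replicate 25 the interaction was 0.19 and its unadjusted p 0.0920, and without trained vehicle replicate 10 it was 0.34. The lowest unadjusted edgeR p of the interaction with 1 library left out was 0.0128, and none passed the adjustment. With runs of 5 sample numbers in the model the interaction was 0.28 with an unadjusted p of 0.0521.

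**Figure D1:**
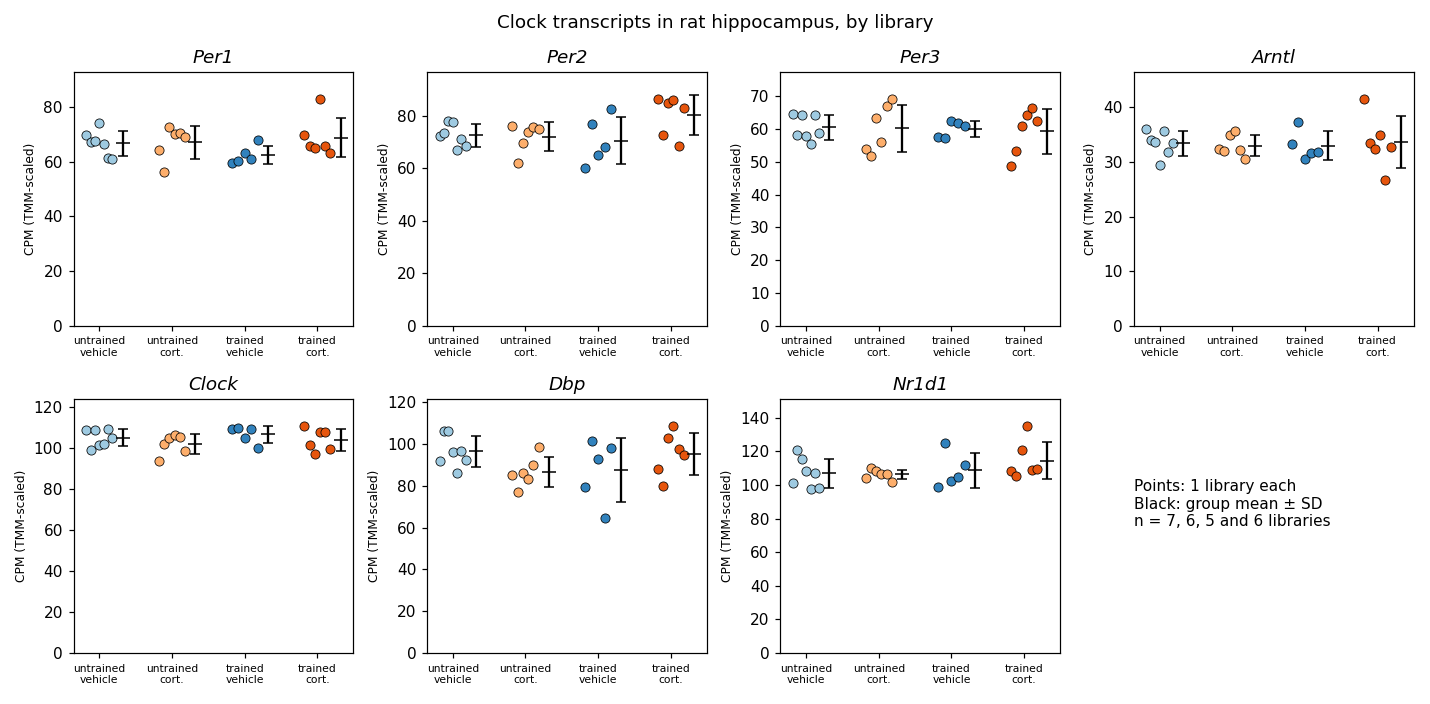
Level of each clock transcript in every library (vertical axis, CPM from 0; points are libraries, black marks group mean ± SD, n = 7, 6, 5 and 6). The 4 groups overlap for all 7 genes, and the Per1 library at 82.8 CPM stands above the other trained corticosterone libraries.

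**Figure D2:**
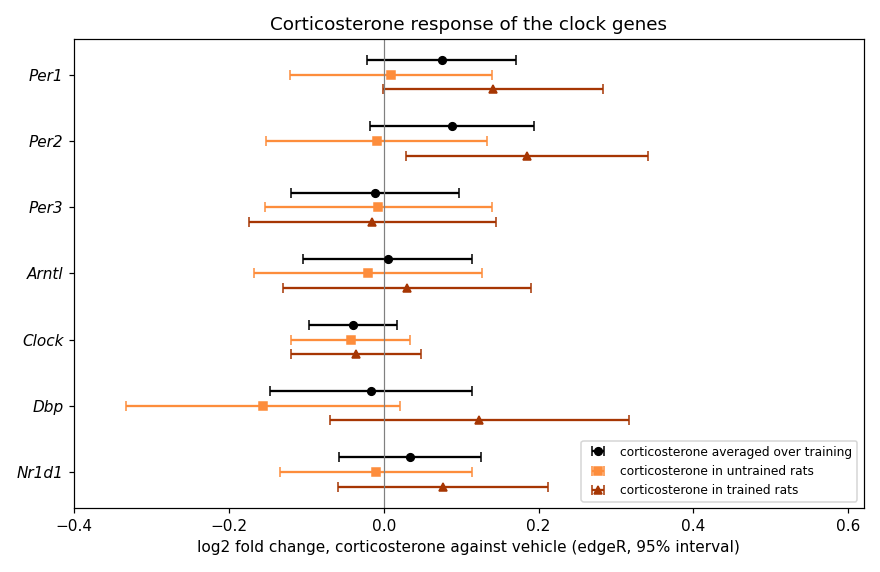
Log2 fold change of each gene with corticosterone against vehicle over both training states and within each (horizontal axis; bars are 95% intervals from edgeR). The Per2 interval in trained rats, 0.03 to 0.34, lies above 0 before adjustment for the number of genes; all intervals over both training states include 0.

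Counted by contrast, 0 of 7 clock genes were called in untrained rats (0.357% of all genes) and 0 of 7 in trained rats (0.162%). At an unadjusted p under 0.05 these counts were 0 of 7 beside 6.39% of all genes, and 1 of 7 (Per2) beside 7.1%. The interaction called 0 of 7 and 0% of all genes, and at an unadjusted p 1 of 7 (Dbp) beside 4.27%. In trained rats 5 of the 7 log2 fold changes were above 0 with a median of 0.08, against 0.00 over all genes; in untrained rats 1 of 7 was above 0 with a median of -0.01, against 0.00 over all genes.

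Training was compared next. Averaged over treatment, 0 of 7 clock genes and 0% of all genes were called, and 0 of 7 against 3.27% at an unadjusted p under 0.05. The log2 fold changes with training lay between -0.03 for Per1 and 0.07 for Nr1d1 (edgeR adjusted p = 0.999 for each). In vehicle rats 0 of 7 and 0% of all genes were called, and unadjusted 0 of 7 beside 2.28%. There Dbp had a log2 fold change of -0.14, which was -0.056 without trained vehicle replicate 25 and -0.21 without trained vehicle replicate 10. In corticosterone rats 0 of 7 and 0% were called, and unadjusted 1 of 7 beside 6.09%. That gene was Per2, with 80.1 ± 7.66 CPM in trained (SD, n = 6) and 72.0 ± 5.53 CPM in untrained corticosterone libraries (SD, n = 6), a log2 fold change of 0.15 (unadjusted p = 0.0416, edgeR adjusted p = 0.812). Without untrained corticosterone replicate 9 it was 0.11, and with runs of 5 sample numbers in the model the unadjusted p was 0.120. The comparisons of Per2 in trained rats and in corticosterone rats share the trained corticosterone libraries. DESeq2 and limma-voom called 0 of 7 in each contrast.

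Because Per1 answers to the glucocorticoid receptor directly, its response was set against that of each other clock gene. For every gene, the log2 ratio of Per1 to that gene was taken within each library and tested with limma over all genes. The Per1 response minus that of Per2 was -0.02, of Per3 0.09, of Arntl 0.07, of Clock 0.11, of Dbp 0.08 and of Nr1d1 0.04 over both training states. Their median was 0.08, beside a median of 0.07 for Per1 minus each gene of the whole table. The difference from Clock, the steadiest of the clock genes, had an SE of 0.05, an interval of 0.00 to 0.22 and an unadjusted p of 0.0471. It did not pass the adjustment (limma adjusted p = 0.505). It was 0.089 without trained corticosterone replicate 28 and 0.082 with runs of 5 sample numbers in the model. Its unadjusted limma p reached 0.0887 with 1 library left out and 0.243 under other settings. Without trained vehicle replicate 10 the differences from Arntl, Dbp and Nr1d1 were 0.042, 0.047 and 0.0046, and without replicate 25 that from Dbp was 0.13. With 1 surrogate variable the difference from Arntl was 0.035 and that from Per3 0.14. The other intervals all included 0, and their highest upper limit was 0.22, for Dbp. Thus 0 of 6 clock genes differed from Per1 beside 0.377% of all genes, and at an unadjusted p under 0.05 it was 1 of 6 beside 9.65%. In untrained rats 0 of 6 were called (0.195% of all genes) and unadjusted 0 of 6 (2.67%). In trained rats 0 of 6 were called (0.0472%) and unadjusted 1 of 6 (16.1%), again Clock. A Per1 response apart from that of the other clock genes was not detectable over both training states, where the intervals still hold differences of up to 0.22 on the log2 scale.

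The clock transcripts also varied among libraries of the same group, and this was described after removal of the 4 group means. Dbp and Nr1d1 had the highest r of any pair, at r = 0.61 (permutation p = 0.00182) and Spearman's rho = 0.63 (permutation p = 0.00119) over 24 libraries. Without the 2 libraries farthest from the Dbp median r was 0.66, and it was 0.68 in the 12 vehicle (permutation p = 0.0144) and 0.50 in the 12 corticosterone libraries (permutation p = 0.0971). A larger absolute r was held by 0.344% of all genes with Dbp and by 1.02% with Nr1d1. Per2 had r = 0.55 with Dbp (permutation p = 0.00544, rho = 0.60 with permutation p = 0.00251, 0.62 without the farthest libraries). With Nr1d1 Per2 had r = 0.52 (permutation p = 0.00838, rho = 0.61 with permutation p = 0.00240, 0.46 without them). For Per2 and Dbp, 2.55% of all genes had a larger absolute r with Per2 and 1.21% with Dbp. For Per2 and Nr1d1 these shares were 3.64% with Per2 and 3.75% with Nr1d1. Within treatments, r of Per2 with Dbp was 0.59 in vehicle (permutation p = 0.0438) and 0.51 in corticosterone libraries (permutation p = 0.0878). With Nr1d1 it was 0.73 (permutation p = 0.00647) and 0.26 (permutation p = 0.415).

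Per1 and Per2 had r = 0.53 (permutation p = 0.00842) and rho = 0.47 (permutation p = 0.0214). This relation rests on few libraries: r was 0.40 without the 2 farthest (permutation p = 0.0665) and 0.40 without untrained corticosterone replicate 9 (permutation p = 0.0564). Within treatments it was 0.56 and 0.53. Per3 and Arntl had a negative r of -0.48 (permutation p = 0.0156) and rho = -0.38 (permutation p = 0.0681), but r was -0.37 without the 2 farthest libraries, -0.28 without trained corticosterone replicate 3 and -0.40 without trained corticosterone replicate 33. For Per3 and Dbp r was 0.44 (permutation p = 0.0312) and rho 0.51 (permutation p = 0.0109), 0.37 without the 2 farthest, with 0.03 in vehicle and 0.79 in corticosterone libraries. The relation of Per3 and Arntl therefore rests on few libraries, and that of Per3 and Dbp was seen in the corticosterone libraries (permutation p = 0.00189) and not in the vehicle libraries (permutation p = 0.918), a difference that was not tested. In the corticosterone libraries Dbp also had r = 0.67 with the sample number described below (permutation p = 0.0177) and r = 0.60 with the log2 total count (permutation p = 0.0374), and Per3 had r = 0.55 with the total count (permutation p = 0.0666). Their part in the relation was not tested.

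**Figure D3:**
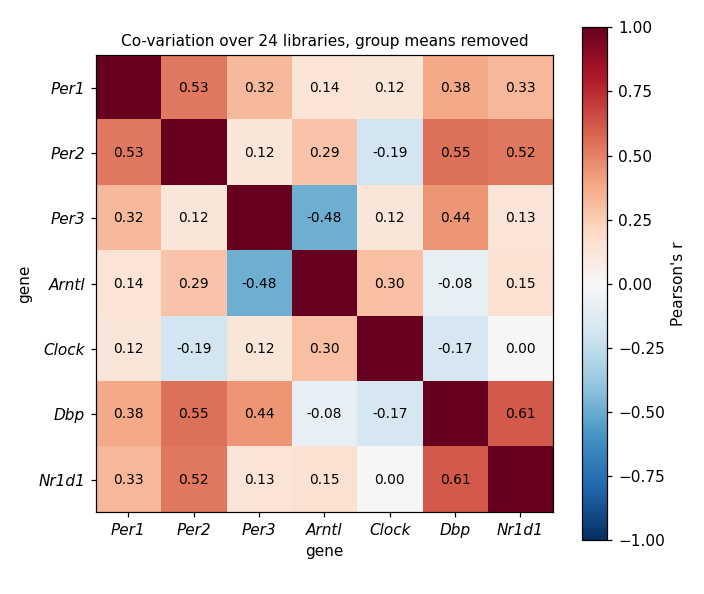
Pearson's r between the log2 levels of each pair of clock genes over 24 libraries after removal of the group means (both axes list the genes; colour and number give r from -1 to 1). Per2, Dbp and Nr1d1 have r of 0.52 to 0.61 with each other, and Per3 and Arntl have -0.48.

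In all, 17 of the 21 pairs had a positive r and 6 had a permutation p under 0.05. Over the family of 42 relations computed, which added the sample number, the first principal component and the total count of the libraries, 0 passed the Benjamini-Hochberg adjustment, with a smallest adjusted p of 0.0697. That family held only Pearson's r over all 24 libraries. The p-values within treatments, of rho and without the farthest libraries were not adjusted. Regressing every gene on each clock gene with limma called 0% of genes for Per1, Per2, Clock, Dbp and Nr1d1, 0.29% for Per3 and 0.0135% for Arntl, and no clock gene among them. At an unadjusted p under 0.05 these shares were 4.61% for Per1 (1 of 6 other clock genes), 9.81% for Per2 (3 of 6), 15.3% for Per3 (2 of 6), 13.9% for Arntl (1 of 6), 8.45% for Clock (0 of 6), 5.76% for Dbp (3 of 6) and 10.2% for Nr1d1 (2 of 6). The genes most like each clock gene could not be named, since their identifiers are paired with no symbol.

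The titles number the samples from 2 to 41, and what the number stands for is not stated. Consecutive numbers hold different groups, and runs such as 2 to 5, 7 to 10 and 17 to 20 hold 1 library of each group. The order in these runs was always untrained vehicle, trained corticosterone, untrained corticosterone and trained vehicle. Only samples 40 and 41 depart from this order. Group and place in a run can thus hardly be told apart, and a fit with runs as a block does not separate them. Within groups, Per3 was higher at higher numbers, with r = 0.57 (permutation p = 0.00332) and rho = 0.55 (permutation p = 0.00634), and 0.63 without the 2 libraries of the most distant numbers. It was r = 0.87 in the 12 corticosterone libraries (permutation p = 4.0e-04) and r = -0.02 in the 12 vehicle libraries (permutation p = 0.960). In corticosterone libraries Per3 was 48.8, 53.8, 53.2 and 51.8 CPM in replicates 3, 4, 8 and 9, and 56.1 to 69.1 CPM in the other 8. The slope was 0.11 on the log2 scale per 10 numbers with corticosterone and -0.00095 with vehicle. The difference of slopes was 0.11 with an SE of 0.03 (unadjusted p = 7.83e-04), a test chosen after the values were seen, and it did not pass over all genes (limma adjusted p = 0.296). Arntl was lower at higher numbers, with r = -0.49 (permutation p = 0.0129) and rho = -0.57 (permutation p = 0.00403), r of -0.43 without the farthest libraries, and r of -0.43 and -0.54 in vehicle and corticosterone libraries. Its r was -0.38 without trained corticosterone replicate 3 (permutation p = 0.0710).

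Regressed on the sample number, 0 of 7 clock genes and 0% of all genes passed the adjustment, and 2 of 7 beside 10.2% at an unadjusted p under 0.05. For the difference of slopes it was 0 of 7 beside 0.00674%, and unadjusted 1 of 7 beside 9.58%. The same 2 genes, Per3 and Arntl, had r of -0.46 and 0.44 with the first principal component of all genes (permutation p = 0.0249 and 0.0317). The sign of the component was set so that Arntl is positive. Without the 2 libraries farthest on the component, r was -0.37 and 0.36 (permutation p = 0.0869 and 0.0987). The other r values were 0.10 for Per1, 0.21 for Per2, -0.15 for Clock, -0.04 for Dbp and 0.26 for Nr1d1. With runs of 5 consecutive numbers removed along with the group means, r was 0.78 for Dbp and Nr1d1, 0.70 for Per2 and Nr1d1, 0.65 for Per2 and Dbp, -0.45 for Per3 and Arntl and 0.33 for Per3 and Dbp. Single runs hold too few libraries for values of their own. What lies behind the relation with the number was not tested.

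**Figure D4:**
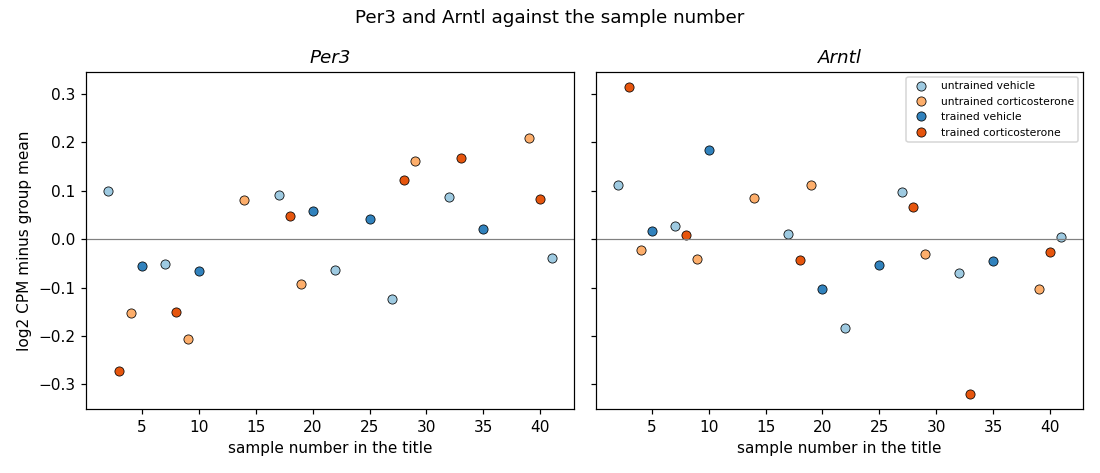
Log2 level of Per3 and Arntl minus the group mean (vertical axis) against the sample number of the title (horizontal axis), 1 point per library coloured by group. Per3 is lowest in the corticosterone libraries with numbers 3, 4, 8 and 9, with r = 0.87 over the 12 corticosterone libraries and -0.02 over the 12 vehicle libraries.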

How the data were processed

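The authors deposited 1 table of raw read counts per gene for all 24 libraries, with Ensembl identifiers. Libraries were stranded, made from enriched messenger RNA and read from both ends, per the labels' protocols. The tools were STAR 2.7.0b, HTSeq 0.6.1, FastQC and MultiQC with build rn6, per the submitters' processing notes; annotation release and strand setting: not given in the sources used here. Summary rows of the counter, on average 39.0% of a column, entered neither library sizes nor tests, and 59.8% to 62.6% of reads fell in genes. The table held 0 columns without a sample. Sample 41 is untrained vehicle by its label, although its column stands among trained vehicle ones, and was used as labelled. No libraries of a group were as close as sampling noise (lowest chi-square per degree of freedom 4.16).

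Genes were filtered with filterByExpr, scaled with TMM factors and tested in R 4.3.3 with edgeR 4.0.16 (glmQLFit, glmQLFTest), with 1 model of 4 group means and 7 contrasts, Benjamini-Hochberg adjustment within a contrast and a threshold of 0.05. Intervals are 95% intervals of the log2 fold change or difference, computed from its SE. They rest on the spread between libraries and do not give the range of single libraries. Ratios and regressions used limma 3.58.1 on log2 CPM with a prior count of 2. Correlations used a two-sided permutation test with 100000 resamples. DESeq2 1.42.0, limma-voom, sva 3.50.0, other scalings, filters and prior counts, and omission of each library were the alternatives. Simulated data were used to test the edgeR corticosterone contrast over both training states and the Per1 ratio. The regression on a clock gene and the permutation test were checked in the same way, and the other procedures were not. The genes to be named were the 7 clock genes. The clock genes and the lists were chosen with earlier results of these data known. Further lists of clock genes, glucocorticoid targets and cell type markers could not be looked up, as 0 identifiers matched the 47357 genes of the reference table, and neither could the hippocampal identity of the tissue be checked. No replicate number is shared between groups, so no samples were paired by number. Since consecutive sample numbers hold different groups, a fit with runs of 5 numbers as a block was an alternative. Such a fit does not separate a group from its place within the runs, which was nearly fixed.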

Additional observations from a re-analysis of the deposited data

Results flagged for a closer look

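Per1 in trained corticosterone replicate 28 was at 82.8 CPM, far from the other 5 libraries of its group, of which the highest was at 69.6 CPM. It was the only such library among 28 combinations of gene and group examined for a value far from the others, and chance flags about 1 in 20. Without it the Per1 log2 fold change with corticosterone in trained rats was 0.08 in place of 0.14, and neither value passed the adjustment.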

How the results depend on the processing

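The groups share no replicate numbers, so no fit pairs samples of the same number, but runs of 5 consecutive sample numbers were fitted as a block. Each edgeR contrast was recomputed without each of the 24 libraries and under up to 10 other settings. Of 1645 values for the 7 clock genes 0 passed the threshold, the lowest adjusted p being 0.341 for Per2 in trained rats without trained vehicle replicate 35, and 98 changed sign. Of 720 values against Per1 0 passed, with a lowest adjusted p of 0.151 (Clock, without untrained corticosterone replicate 9), and 23 changed sign. The background counts depend more on the setting. Of all genes, 138 were called over both training states and 52 with runs of 5 sample numbers in the model; 53 in untrained rats, 24 with the runs and 89 by DESeq2; 24 in trained rats, 10 with the runs, 13 with only the groups compared and 60 by DESeq2. Against Per1, 56, 29 and 7 genes became 24, 13 and 3 with the runs. Single libraries moved them too: 33 or 34 genes were called in untrained rats without untrained vehicle 7 or 41 or untrained corticosterone 29 or 39, and 14 in trained rats without trained vehicle 10. Against Per1, 102 were called without untrained corticosterone 9, and in trained rats 4 without trained vehicle 20 or 25 or trained corticosterone 40. With the runs in the model, samples 14 and 41 stand alone in their run.

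The sign changes were small in log2 fold change. With the runs, Arntl was at -0.045 over both training states and -0.0080 in trained rats, Per1 at -0.032 in untrained rats and Per1 minus Nr1d1 at -0.0059 there. With 1 surrogate variable, the untrained values were 0.00090 for Per2, 0.010 for Arntl and 0.0049 for Nr1d1. Upper-quartile factors gave -0.0016 for Arntl over both states and -0.0022 for the Clock interaction, and limma-voom gave -0.00030 for Arntl with training. Leaving out 1 library, the corticosterone values over both states ranged from -0.033 to 0.014 for Per3, -0.029 to 0.034 for Arntl and -0.064 to 0.012 for Dbp. In untrained rats they ranged from -0.016 to 0.055 for Per1, -0.030 to 0.031 for Per2, -0.051 to 0.032 for Per3, -0.049 to 0.00012 for Arntl and -0.032 to 0.022 for Nr1d1; in trained rats, from -0.049 to 0.035 for Per3 and -0.039 to 0.088 for Arntl. The interaction ranged from -0.047 to 0.043 for Per3, -0.018 to 0.11 for Arntl and -0.015 to 0.026 for Clock. Training ranged from -0.037 to 0.0080 for Per3, -0.029 to 0.034 for Arntl and -0.036 to 0.040 for Dbp, and in corticosterone rats from -0.060 to 0.029 for Per3. Per1 minus Per2 ranged from -0.040 to 0.0025, and Per1 minus Nr1d1 in untrained rats from -0.015 to 0.073. The cause of these shifts was not tested.

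The count of correlated pairs, 6, ranged from 5 to 8 under all settings. With runs of 5 sample numbers removed, where it was 8, the permutation p is likely too small. Removing the runs fixes the values of samples 14 and 41, and the permutation took no account of the terms fitted. Of the 6 pairs, those among Per2, Dbp and Nr1d1 kept a permutation p under 0.05 over all libraries in every alternative scaling, prior count, covariate and leave-out run. They did not keep it within the 12 corticosterone libraries alone. Per3 with Arntl did not with 1 surrogate variable (r = -0.37), nor Per3 with Dbp without runs of numbers (r = 0.33) or without any of 5 single libraries (r of 0.37 to 0.41, untrained corticosterone 9 and 39, trained corticosterone 8 and 28, untrained vehicle 27). Correlations with the sample number, recomputed as an alternative chosen after seeing the data, ranged from 0.50 to 0.69 for Per3 and -0.53 to -0.38 for Arntl with 1 library left out. Within the corticosterone libraries r of Per3 ranged from 0.84 to 0.91 with 1 library left out. With 1 surrogate variable removed it fell there from 0.87 to 0.68 (permutation p = 0.0188). The motif counts were the same in the 250 bases before the start.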
